A study of Nothobranchius furzeri with 19 samples.

Results

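The adult gonads of the turquoise killifish *Nothobranchius furzeri* were compared in 2 of the 19 RNA-seq libraries of the study, the library labelled ovary from females and the library labelled testis from males, both of the strain GRZ at 3 months of age. They were chosen by their tissue labels. The labels name no genotype change or treatment for any library and do not say how many animals contributed to either gonad. The other 17 libraries hold females and males of the same strain as whole embryos at 10 days post fertilization (dpf) and as trunks at 0 and 3 days post hatching (dph), with 2 or 3 libraries per sex and stage. Since each gonad was sequenced once, differences between them have no replicate check, are given as counts and folds without a test, and cannot be separated from differences between these particular libraries. Intervals cover counting error only. In whole gonads, fewer cells of a type and less RNA per cell cannot be told apart.

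In vertebrate ovaries, oocytes arrest in meiosis while they grow and store messenger RNA, proteins and the coat of the egg for the embryo, surrounded by somatic follicle cells. In testes, spermatogonia divide, pass through meiosis and are remodelled into sperm, which build a flagellum around an axoneme, the microtubule core that motile cilia share. Sertoli cells nurse the male germ cells and Leydig cells produce androgens.

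The table held 26740 genes, of which 24306 had at least 1 count in the 2 gonads. Total counts were 25875516 for the ovary and 11717979 for the testis, so the ovary was sequenced 2.21 times as deeply. A count of 3, used here as the floor of detection, equalled 0.116 CPM (a gene's count in proportion to the library's total, the usual per-library unit) in the ovary and 0.256 CPM in the testis. Ratios were formed after median-of-ratios scaling, which sets the typical gene equal between the gonads (median log2 ratio -0.03), with a pseudocount of 1 added to both scaled counts. Scaling by library totals instead moved every ratio towards the testis and set the median of all genes at -0.56. Folds with an interval are ratios of scaled counts without a pseudocount, with an exact 95% counting interval. Gene symbols, from a shortened table of zebrafish-based names, were at hand for 2671 genes. These are mostly the lowest identifiers of the annotation plus leading genes of the 10 dpf comparison, not a random subset, and every named gene below comes from them or is given by its identifier.

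The labels were checked against germ cell markers. *KLHL10* (2 of 2), a ubiquitin ligase adaptor of mouse spermatids, had 20 counts in the ovary and 6723 in the testis. *SPA17*, a sperm surface protein, had 106 and 3103 counts, and *brdt*, a bromodomain protein of male germ cells, had 2034 and 8352. The flagellar dynein gene *DNAH8* had 34 counts in the ovary and 543 in the testis. These markers lay on the testis side, whereas *tpte*, a phosphatase gene listed with them, had 4390 counts in the ovary and 669 in the testis. Of the 3 oocyte markers, of which *lsm14b* and *pabpc1l* were also counted in the list of RNA storage genes described further on, *lsm14b*, an RNA granule protein of mouse oocytes, had 4577 counts in the ovary and 1 in the testis. *FOLR4*, the sperm receptor of the mouse egg, had 1064 and 53 counts. The embryonic poly(A)-binding protein gene *pabpc1l* had 9954 and 3917 counts and was 1.68-fold (95% interval 1.62 to 1.74) higher in the ovary. The RNA storage list as a whole did not lean to the ovary, with 8 of 12 genes higher in the testis and a median log2 ratio of -0.25. In the oocyte and egg list, 1 of 2 models of the DNA methyltransferase gene *dnmt3b* had 13 and 14 counts and the other 75 and 31.

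The gonads expressed similar numbers of genes. More than 3 counts were found for 20102 genes in the ovary and 20535 in the testis, and 18792 genes passed this floor in both. A further 1310 genes passed it only in the ovary and 1743 only in the testis, while 4895 passed it in neither. When the ovary library was thinned at random to the testis total, 18494 genes (range 18475 to 18544 over 20 draws) were detected in it. Genes with at least 1000 counts numbered 5559 in the ovary and 2919 in the testis at full depth, and 2331 (2317 to 2342) in the thinned ovary. At equal depth the ovary library therefore held fewer genes than the testis library at either level.

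The ovary library was more concentrated on its most abundant transcripts. Its top gene took 2.03% of all counts, against 0.514% for the top gene of the testis. The 10 most-counted genes took 9.46% in the ovary and 3.42% in the testis, and the 100 most-counted genes took 28.1% and 13.8%. A cumulative share of 50% was reached with 789 genes in the ovary and 1298 in the testis, and 90% with 6548 and 7120. The 95% counting intervals of all these shares extend at most 0.0286 percentage points either way. Counts were not corrected for gene length, so the shares are of reads and not of molecules.

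**Figure D1:**
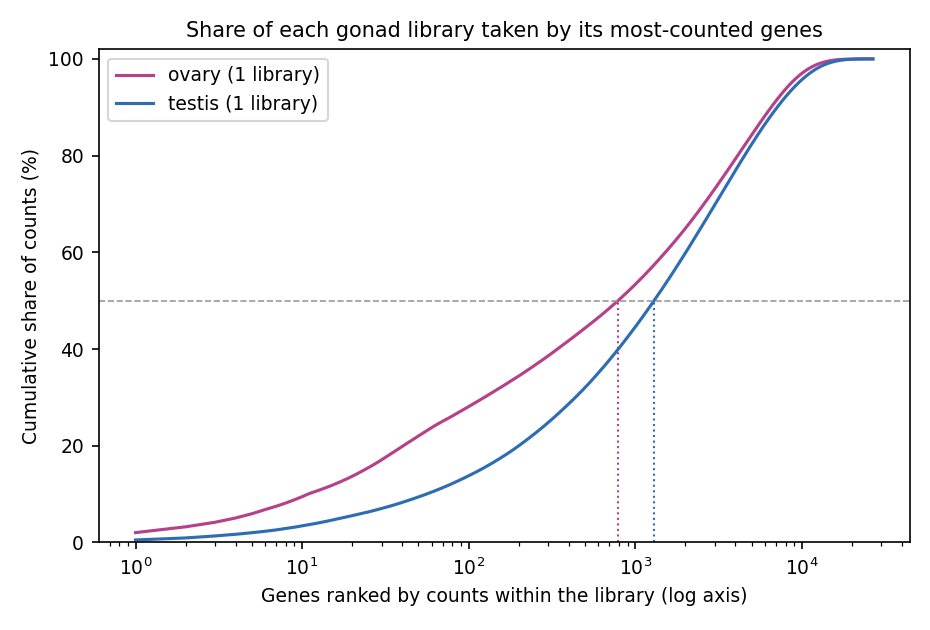
Cumulative share of counts (y axis, %) against the genes of each library ranked by their counts (x axis, log scale), for 1 ovary and 1 testis library. Dotted lines mark the rank at which 50% was reached, 789 genes in the ovary and 1298 in the testis, and the ovary curve lies above the testis curve at ranks 1, 10, 100 and 1000.

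The most abundant transcripts of each gonad were lower in the other in many cases, more often for the ovary. Of the 100 most-counted ovary genes, 83 were at least 4-fold higher in the ovary, 0 were at least 4-fold higher in the testis and 9 lay within 2-fold. These 100 genes took 3.17% of the testis library. Of the 100 most-counted testis genes, 56 were at least 4-fold higher in the testis, 0 were at least 4-fold higher in the ovary and 25 lay within 2-fold, and together they took 4.95% of the ovary library. The lists shared 15 genes. Ranks were taken from these same counts, so the excess on the own side is in part fixed by the ranking. The fold counts of these lists rest on median-of-ratios scaling. They were not repeated with library totals, which move every ratio towards the testis. Over all genes with a count, 14.2% were at least 4-fold higher in the ovary and 15.8% in the testis.

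Only 4 of the 100 most-counted ovary genes and 13 of the testis genes had a symbol. Those described for the ovary are *krt5*, a keratin gene, *ace*, the angiotensin-converting enzyme gene, and *hdlbp*, which encodes the RNA-binding protein vigilin. *krt5* had 85823 counts in the ovary and 70 in the testis, an 810-fold (641 to 1040) difference, and *ace* had 67509 and 55, an 811-fold (623 to 1077) difference. A second gene model carries the symbol *krt5* and behaved otherwise, with 11225 counts in the ovary and 14183 in the testis. *hdlbp* had 41928 and 7679 counts and was 3.61-fold (3.52 to 3.70) higher in the ovary.

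The testis names included genes of the cytoskeleton, of RNA handling and of metabolism. *AZI1* (2 of 2), which encodes a protein of centriolar satellites, had 608 counts in the ovary and 20105 in the testis, 50.03-fold (46.1 to 54.3) higher in the testis. *INF2*, a formin gene, had 1422 and 21697 counts, a 23.1-fold difference, and *kif3b*, a motor subunit of intraflagellar transport, had 1187 and 17514, a 22.3-fold difference. *MLF1* stood at 347 and 9701 counts and *fam188a* at 1038 and 14083. The cytoplasmic poly(A)-binding protein gene *pabpc1b* had 7839 counts in the ovary and 26799 in the testis and was 5.17-fold (5.04 to 5.30) higher in the testis, the reverse of its relative *pabpc1l*. *pkma*, a pyruvate kinase gene, the heat shock gene *hspa8l* and 1 of 4 models of the kinetochore motor gene *CENPE* were 4.19-, 5.61- and 4.26-fold higher in the testis. The ubiquitin ligase gene *trip12* was 2.20-fold higher in the testis, and the ribosomal protein gene *rpl5b*, with 21489 and 10996 counts, lay within 2-fold.

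The most abundant ovary genes were present in the testis library at a low and even level. Of the top 10 ovary genes, 9 were at least 4-fold higher in the ovary, and their CPM in the testis was between 0.113% and 0.308% of that in the ovary, which left them with 104 to 732 testis counts. Of the top 10 testis genes, 5 were at least 4-fold higher in the testis, and their CPM in the ovary spread from 0.0143% to 12.2% of that in the testis.

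Differences between the gonads were wide and ran both ways. A difference of at least 4-fold was found for 3447 genes higher in the ovary (14.2% of the genes with a count) and 3840 higher in the testis (15.8%). The numbers were 6827 and 7663 at 2-fold, 1679 and 1924 at 8-fold, 922 and 976 at 16-fold, and 537 and 539 at 32-fold, and 9816 genes lay within 2-fold. The 4-fold ovary genes had a median of 699 ovary counts (27.01 CPM) and took 45.6% of the ovary library, whereas the 4-fold testis genes had a median of 83.5 testis counts (7.13 CPM) and took 27.6% of the testis library. Of the former 184 and of the latter 589 had under 10 counts in the higher gonad.

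Thinning the ovary library to the testis total changed these classes little. At 4-fold, 3065 genes (3045 to 3104 over 20 draws) were then higher in the ovary and 4043 (3995 to 4081) in the testis. At 32-fold there were 489 and 561. The choice of scale mattered more. With library totals, 2401 genes were at least 4-fold higher in the ovary and 5197 in the testis, whereas TMM factors gave 3361 and 3968. The near balance of the sides thus held with both scales that centre the typical gene and not with library totals. With a pseudocount of 10, which weighs down genes of low count, the order reversed to 2685 and 2201.

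**Figure D2:**
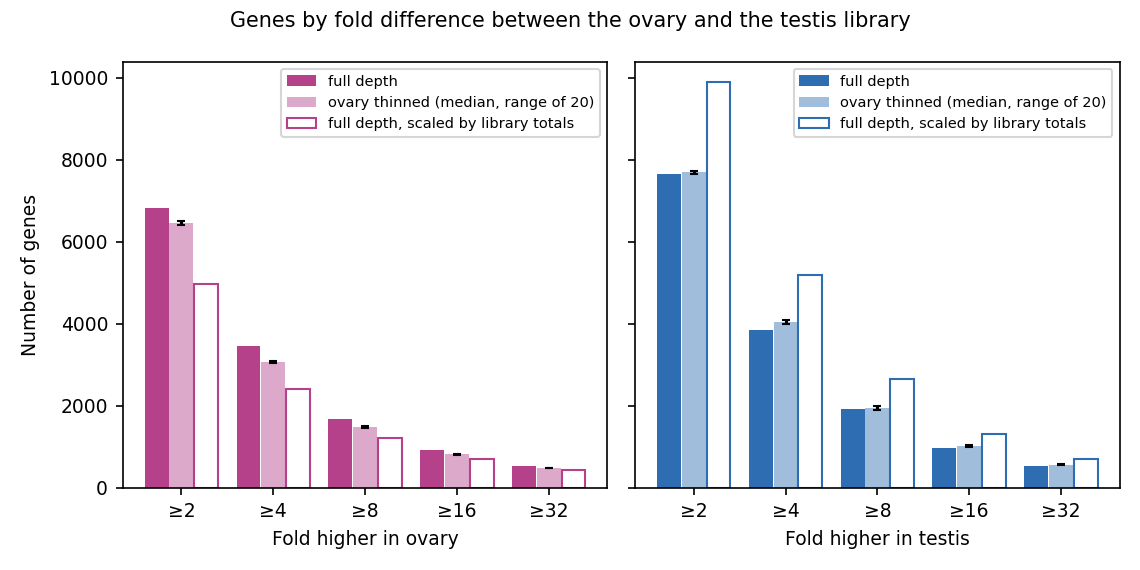
Number of genes (y axis) at or above each fold (x axis) in the ovary (left) and the testis (right). Filled bars give the full-depth ratios, pale bars the median of 20 thinnings of the ovary library with the range as error bars, and open bars the full-depth ratios scaled by library totals, which lowered the 4-fold ovary genes from 3447 to 2401 and raised the 4-fold testis genes from 3840 to 5197.

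A stricter class holds genes that were on in 1 gonad, with at least 1 CPM, and at or under the floor of 3 counts in the other. It had 391 ovary-only genes (1.61% of the genes with a count and 2.43% of those on in the ovary) and 699 testis-only genes (2.88%, and 3.92% of those on in the testis). Because the floor stands for a lower level in the deeper ovary library, the testis-only rule was the stricter of the pair. After thinning there were 399 ovary-only (387 to 407) and 1344 testis-only genes (1313 to 1369). Among the ovary-only genes, 105, 96, 100 and 90 had 0, 1, 2 and 3 counts in the testis. Just outside the rule, 87 genes that were on in the ovary had 4 counts in the testis. For the testis-only genes these numbers were 187, 189, 153 and 170, with 169 just outside. The numbers showed no gap at the floor.

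Most of these genes were of low abundance. The ovary-only genes had a median of 3.28 CPM, 101 of them reached 10 CPM and 28 reached 100 CPM, and together they took 0.983% of the ovary library. The testis-only genes had a median of 2.22 CPM, 119 reached 10 CPM and 23 reached 100 CPM, and they took 0.972% of the testis library. The 2 ovary-only genes with the most counts were Nfu_g_1_011300, with 16808 counts in the ovary and 3 in the testis, and Nfu_g_1_011867, with 14048 and 2. In the testis they were Nfu_g_1_011805, with 7451 counts and 3 in the ovary, and Nfu_g_1_010228, with 5395 and 1. These 4 genes have no symbol here, and their scaled ratios were 3703 (1267 to 17960), 4643 (1285 to 38341), 3757 (1285 to 18224) and 8162 (1464 to 322436) in that order.

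**Figure D3:**
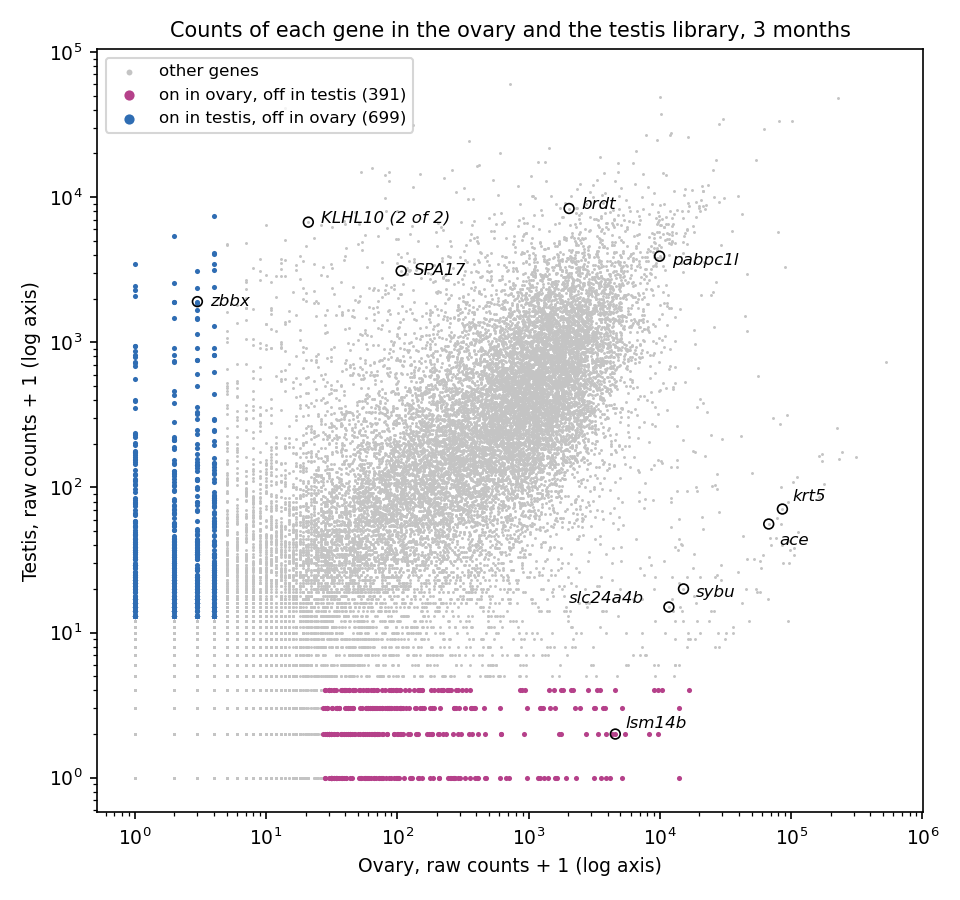
Raw counts + 1 of each gene in the ovary (x axis, log scale) and in the testis library (y axis, log scale). Coloured points are the 391 ovary-only and the 699 testis-only genes, circles mark 10 named genes, and *krt5*, *ace*, *sybu* and *slc24a4b* lie far to the ovary side and *KLHL10* (2 of 2), *SPA17* and *zbbx* far to the testis side.

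Among genes with a symbol and at least 100 counts in the higher gonad, the largest ratios on the ovary side belonged to *lsm14b*, *krt5*, *ace*, *slc24a4b*, *sybu*, *stm*, *mctp2a*, *osbpl7*, *MMEL1* and *csf1b*. *lsm14b* was 3025-fold (543 to 119522) higher in the ovary, with a log2 ratio of 10.70. *sybu*, which encodes syntabulin, a kinesin adaptor that carries the dorsal determinants of the zebrafish egg, had 15135 counts in the ovary and 19 in the testis, a 527-fold (337 to 875) difference. The calcium exchanger gene *slc24a4b* had 11717 and 14 counts and was 553-fold (330 to 1012) higher. *stm*, the starmaker gene known from the zebrafish otolith, had 7307 and 9 counts, and *MMEL1*, a membrane metallopeptidase gene, had 12381 and 23. The counts were 2185 and 3 for *mctp2a*, a calcium-binding membrane protein gene, and 1597 and 2 for *osbpl7*, an oxysterol-binding protein gene. The cytokine gene *csf1b* had 413 counts in the ovary and 0 in the testis and was at least 91.0-fold higher against a floor of 3 counts in the testis library.

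Among the 10 largest ratios on the testis side were those of *zbbx*, *wasa*, *dnah12*, *KLHL10* (2 of 2), *WDR65*, *ATG14*, *eea1*, *pcp4b* and *tnnc1a*. *zbbx*, a zinc finger gene, had 2 counts in the ovary and 1906 in the testis, a 1442-fold (399 to 11914) difference. The axonemal dynein gene *dnah12* had 2 and 1878 counts, a 1421-fold (393 to 11739) difference. *WDR65*, also a gene of cilia, had 6 and 2016 counts. *wasa*, an actin regulator gene, had 0 counts in the ovary and 720 in the testis and was at least 363-fold higher against the floor in the ovary library. Among genes with other roles, the autophagy gene *ATG14* had 6 and 1723 counts, the early endosome gene *eea1* had 11 and 2878, *pcp4b*, a calmodulin regulator gene, had 19 and 4612, and the troponin gene *tnnc1a* had 3 and 820. The 10 largest ratios on each side all kept their direction under the other scalings, the pseudocount of 10 and the thinning. Since they were picked as the most extreme ratios of these same counts, this was fixed by the choice and is no check.

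The lists of cilium genes lay on the testis side almost as a whole. Members of all 23 lists were chosen with earlier results of these data known. The shares over all genes given beside the lists here and below are therefore a description and not a test. Of 13 axoneme genes, 12 were at least 4-fold higher in the testis and 0 in the ovary, against 17.3% and 15.2% of all genes with a symbol and a count, and the median log2 ratio was -4.55, against -0.03 over all genes. *dnaaf1*, needed to assemble dynein arms, had 7 counts in the ovary and 954 in the testis, and *nme7* had 249 and 4958. The remaining member, *C5H11orf88*, had 49 and 10 counts and was 3.24-fold (1.62 to 7.17) higher in the ovary. Of 10 genes of cilium assembly and transport, 7 were at least 4-fold higher in the testis, with a median of -2.89. *IFT74* and *ift80*, subunits of the intraflagellar transport particle, had 232 and 368 counts in the ovary and 2932 and 1619 in the testis, and *nek8*, a ciliary kinase gene, had 101 and 1580. *tmem67*, a gene of the ciliary transition zone, lay within 2-fold (1813 and 1522 counts).

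Of 8 male germ cell genes, 5 were at least 4-fold higher in the testis and 1, *tpte*, was 4.34-fold (3.998 to 4.71) higher in the ovary (under 4-fold with library totals), with a list median of -3.87. Of all genes with a symbol, 17.3% passed 4-fold in the testis and 15.2% in the ovary. *NSUN7*, an RNA methyltransferase gene needed for sperm motility in mice, had 12 counts in the ovary and 980 in the testis, a 124-fold (70.4 to 240) difference. *tdrd6*, a Tudor domain gene of germ granules, was abundant in both with 4341 and 6664 counts, 2.32-fold (2.23 to 2.41) higher in the testis. *SCML2* had 48 and 35 counts, and the interval of its ratio (0.693 to 1.74) includes equality.

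The oocyte and egg list held 7 gene models, of which 4 were at least 4-fold higher in the ovary and 0 in the testis. The shares over all genes with a symbol were 15.2% and 17.3%. The list median was 2.90. The median was 0.99 when gonad counts under 3 were set to 3 and the prior count was dropped, because *birc7*, with 9 counts in the ovary and 0 in the testis, was then set at its lower bound. Besides *sybu* and *FOLR4*, *sall4*, a zinc finger gene of germ cells and early embryos, had 2884 counts in the ovary and 255 in the testis and was 7.48-fold (6.58 to 8.53) higher in the ovary. *taf4b*, a transcription cofactor of mouse germ cells, had 1355 and 576 counts, a 1.55-fold (1.41 to 1.72) difference.

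Genes of meiosis were split between the gonads. The meiotic cohesin gene *rad21l1* had 672 counts in the ovary and 3890 in the testis, 8.76-fold (8.07 to 9.52) higher in the testis, while the other meiotic cohesin gene, *rec8*, had 45 and 7, 4.25-fold (1.90 to 11.2) higher in the ovary. *spo11*, whose product makes the breaks that start recombination, had 29 and 4 counts, and *C6H1orf146*, the killifish entry for a synapsis gene, had 6 and 63. Recombination repair genes, which act in both germ lines and in dividing cells, differed less, with a median of -0.49 over 8 genes. Of these genes 1, *rad52* (228 and 646 counts), was at least 4-fold higher in the testis, against 17.3% of all genes with a symbol. *rad54l* had 3524 and 980 counts and was 2.38-fold (2.21 to 2.55) higher in the ovary, whereas *rad54b* had 832 and 2093 and was 3.81-fold (3.51 to 4.13) higher in the testis.

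Genes of RNA storage and translation had a median of -0.25 over 12 genes, with *lsm14b* at one end and *pabpc1b* at the other as the only members past 4-fold. Of all genes with a symbol, 15.2% passed 4-fold in the ovary and 17.3% in the testis. *ddx6*, a helicase gene of RNA granules, had 3988 counts in the ovary and 6665 in the testis and was 2.53-fold (2.43 to 2.63) higher in the testis. Of 16 gene models of chromosome segregation, from 13 symbols, 13 were higher in the testis (14 with library totals). The list median was -1.08, against -0.03 over all genes. In this list 2 models passed 4-fold in the testis (4 with library totals) and 0 in the ovary, against the same 17.3% and 15.2%. The *smc4* condensin gene had 4018 and 6023 counts. *cdca5*, which protects sister cohesion, had 683 and 175 counts and was 2.58-fold (2.18 to 3.06) higher in the ovary. In the DNA replication list 2 of 11 genes passed 4-fold, both in the ovary (0 with library totals), near the 15.2% of all genes with a symbol. *rrm1*, a subunit of ribonucleotide reductase, had 8162 and 1208 counts, a 4.47-fold (4.204 to 4.75) difference, and *E2F3* had 2839 and 349, a 5.38-fold (4.81 to 6.03) difference. Ribosomal protein, mitochondrial ribosome and proteasome genes had 0 of 9, 0 of 8 and 0 of 4 members past 4-fold in either direction.

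**Figure D4:**
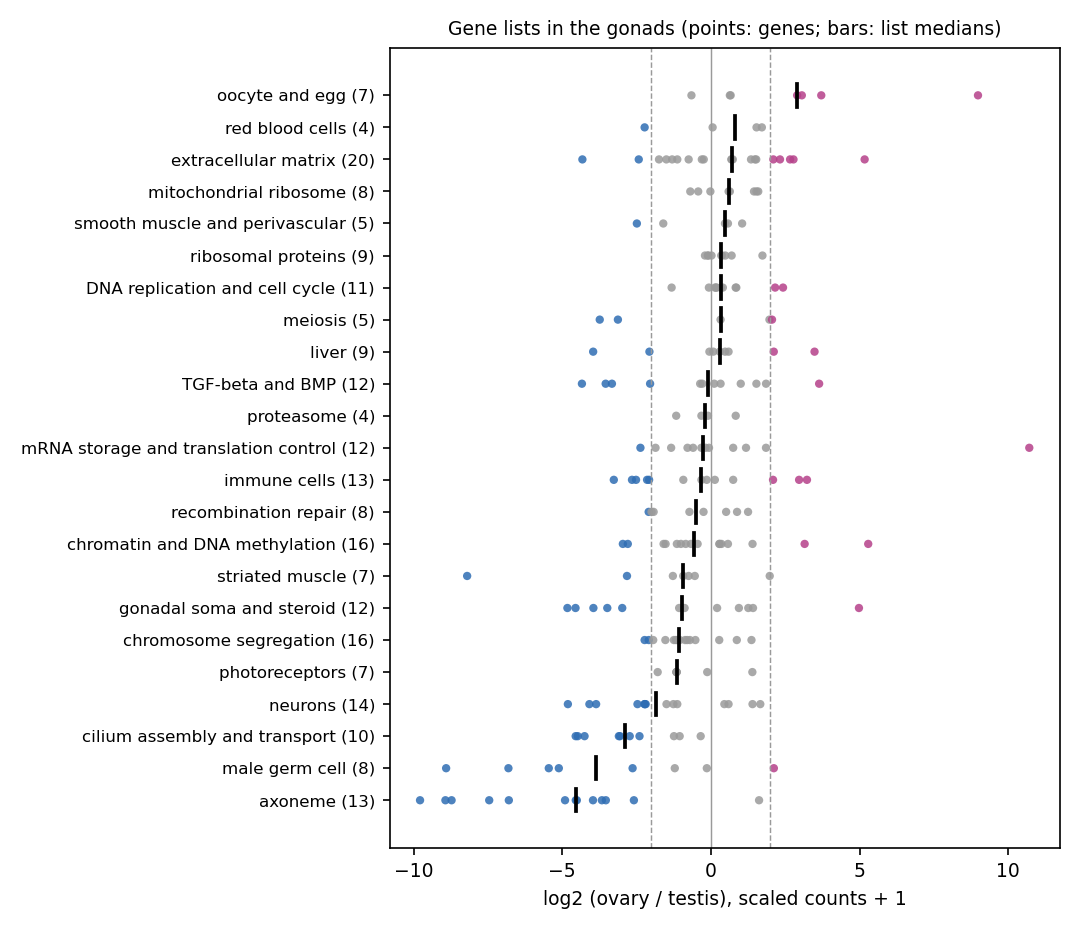
The log2 ratio of ovary to testis (x axis, scaled counts + 1) of the counted genes of 23 lists, with the number of genes in brackets. Points are genes, coloured where they passed 4-fold (dashed lines) in the ovary or the testis, and black bars are list medians, which run from -4.55 for axoneme genes to 2.90 for oocyte and egg genes.

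Somatic and hormonal genes of the gonad went both ways. *rspo3*, which encodes a secreted enhancer of Wnt signalling, had 514 counts in the ovary and 10 in the testis and was 34.0-fold (18.3 to 71.3) higher in the ovary. *sox9a*, a Sertoli cell transcription factor gene, had 33 and 178 counts, 8.16-fold (5.60 to 12.2) higher in the testis. One of 2 models of *cyp11c1*, the 11-beta-hydroxylase gene of teleost androgen synthesis, had 11 and 189 counts and the other had 15 and 19, so reads may be divided between them. *cbx2*, a Polycomb gene required for testis formation in mice, had 410 and 3043 counts and was 11.2-fold (10.1 to 12.5) higher in the testis. *gata6*, a transcription factor gene of gonadal soma, had 1091 and 270 counts and was 2.67-fold (2.34 to 3.06) higher in the ovary. In sum 1 of 12 models was at least 4-fold higher in the ovary and 5 in the testis, against 15.2% and 17.3% of all genes with a symbol. Among the latter were *oxtr* and *wnt4b*, with 1 ovary count and 41 and 22 testis counts.

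In the TGF-beta and BMP list, signals that control germ cell number and follicle growth in many vertebrates, 1 of 12 genes passed 4-fold in the ovary and 4 in the testis (2 in the testis with a pseudocount of 10), against 15.2% and 17.3% of all genes with a symbol. The ligand gene *bmp7b* had 259 counts in the ovary and 13 in the testis, 13.2-fold (7.57 to 25.1) higher in the ovary. The ligand gene *tgfb3* had 18 and 147 counts, 12.4-fold (7.55 to 21.4) higher in the testis, and *gdf10a* and the inhibitor gene *nog3* had 1 ovary count each and 14 and 29 testis counts. The receptor genes *bmpr2b* and *acvrl1* differed by 1.29- and 1.22-fold. The target genes *id1* (644 and 147 counts) and *id3* (741 and 135) were 2.90-fold (2.42 to 3.49) and 3.63-fold (3.02 to 4.39) higher in the ovary.

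Of 16 chromatin gene models, 2 passed 4-fold in each direction, a share no larger than that of all genes with a symbol (15.2% and 17.3%). The histone genes *HIST2H2AB* (20 of 23), with 106 counts in the ovary and 1 in the testis, and *hist2h3ca1*, with 50 and 3, were higher in the ovary, but both belong to families of near-identical copies and their counts are uncertain. The histone demethylase gene *kdm5bb* (117 and 608 counts) and the chromatin reader gene *l3mbtl1b* (679 and 3121) were 7.86- and 6.95-fold higher in the testis. Of 20 counted extracellular matrix models, 5 passed 4-fold in the ovary and 2 in the testis (3 and 4 with library totals), against the same 15.2% and 17.3%. *mfap5*, a microfibril gene, had 1222 and 127 counts, *fmoda*, a fibromodulin gene, 43 and 0, and *col18a1*, a basement membrane collagen gene, 56 and 756.

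Markers of other cell types were summed as a check of what else the gonads held, and their part in the results was not tested. CPM follows library totals, so these sums are on another scale than the ratios. The summed CPM of the immune list was 130 in the ovary and 104 in the testis, and that of the smooth muscle list 679 and 966. The median log2 ratios of these lists lay on the other side, at -0.32 (8 of 13 models higher in the testis) and 0.47 (3 of 5 genes higher in the ovary). Red blood cell genes summed to 9.24 and 7.17 CPM, liver genes to 27.3 and 19.5, striated muscle genes to 16.5 and 85.3, neuronal genes to 6.61 and 17.4 and photoreceptor genes to 0.502 and 1.19. In the muscle list the testis value is mostly *tnnc1a* (69.98 CPM), and 6 of 15 neuronal and 6 of 8 photoreceptor models had 0 counts in the ovary. Within the immune list, *ptpn22* (904 and 63 counts) and 1 of 2 models of *INPP5D* (1815 and 153) were 9.48- and 7.84-fold higher in the ovary, while *cd40* (39 and 255) was 9.89-fold higher in the testis, and the B cell gene *cd79a* had 11 and 4 counts.

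Almost all ovary-only and most testis-only genes were also detected outside the adult gonads. Only 7 ovary-only genes (1.79%) were at or under 3 counts in all 17 embryo and trunk libraries, against 57 testis-only genes (8.15%). This share was 0.0746% over all genes on in the ovary and 0.415% over all genes on in the testis. Over all 18848 genes that were on in at least 1 gonad it was 0.440%. At 3 dph, 239 ovary-only and 357 testis-only genes passed the floor in every library (61.1% and 51.1%, against 94.4% of the genes on in at least 1 gonad), and 12 and 100 passed it in none. Of the ovary-only genes 90.8%, 92.6% and 89.3% passed the floor in the 3 female libraries and 68.5%, 73.9% and 70.6% in the 3 male libraries, so the sexes did not overlap. Over the genes on in at least 1 gonad these shares were 97.30% to 98.1% in females and 96.1% to 97.28% in males. The sexes thus did not overlap there either, though by a narrow margin. At 0 dph the ovary-only shares were 81.3% and 65.5% in females and 55.0% to 61.6% in males, and at 10 dpf they overlapped, with 67.8% to 70.8% in females and 60.4% to 73.9% in males. Total counts at 3 dph were 28713163, 29128051 and 29823598 in the females and 29132172, 31493908 and 25600939 in the males, so depth overlapped between them. For the testis-only genes the shares were 69.1%, 73.0% and 64.7% in females and 64.8%, 71.4% and 69.8% in males, which overlapped.

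The 3 dph trunks, which contain the larval gonad among other tissues and had no part in choosing the gonad genes, allow a test over 3 female and 3 male libraries. In DESeq2 over all genes, 111 of the 338 ovary-only genes with an adjusted p-value (32.8%) were higher in females at an adjusted p-value under 0.05, against 13.7% of all 21772 genes, and 12 were higher in males. Of the 458 testis-only genes, 37 (8.08%) were higher in males, against 5.19% of all genes, and 6 were higher in females. The ovary-only count was between 91 and 99 with any 1 library left out. The testis-only count was 22 (5.99%), 35 (8.68%) and 15 (3.69%) without male replicates 1, 2 and 3. Over all genes the shares were then 3.34%, 6.57% and 3.58%. Without female replicates 1, 2 and 3 the testis-only count was 16 (3.56%), 19 (4.63%) and 18 (3.56%). Over all genes the shares were 2.18%, 2.92% and 2.49%. Except without male replicate 2, the count thus fell by over 1.5 times. Without male replicate 3 its share was near that of all genes. With edgeR it was 19 (5.38%, against 3.45%) and with TMM factors in DESeq2 26 (5.08%, against 4.04%).

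The share of genes higher in females at 3 dph increased with the difference between the adult gonads. It was 10.2% among genes within 2-fold in the gonads, 20.4% at 2- to 4-fold, 28.7% at 4- to 8-fold, 30.6% at 8- to 16-fold, 31.9% at 16- to 32-fold and 64.4% (338 of 525 genes) at 32-fold or more on the ovary side. The last number lay between 319 and 334 with any 1 library left out and was 334 with edgeR. The 32-fold classes of both gonads were chosen after the data were seen. The share higher in males was 5.48% among genes within 2-fold and 1.90% to 4.52% in the classes of the ovary side. On the testis side it was 7.12%, 6.30%, 7.96% and 6.37% in the same order up to 32-fold. At 32-fold or more it was 4.69% (20 of 426 genes), so it showed no steady increase with the fold. The number in this 32-fold testis class was 13 with edgeR, 9 without male replicate 3 or female replicate 1, 10 and 11 without female replicates 3 and 2, 13 without male replicate 1 and 29 without male replicate 2. The genes of the testis classes were fewer in reads at 3 dph, with a median of 43.3 normalised counts in the last class against 263 for the ovary genes, and a low count is harder to call. How far this sets the difference between the sides was not tested.

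**Figure D5:**
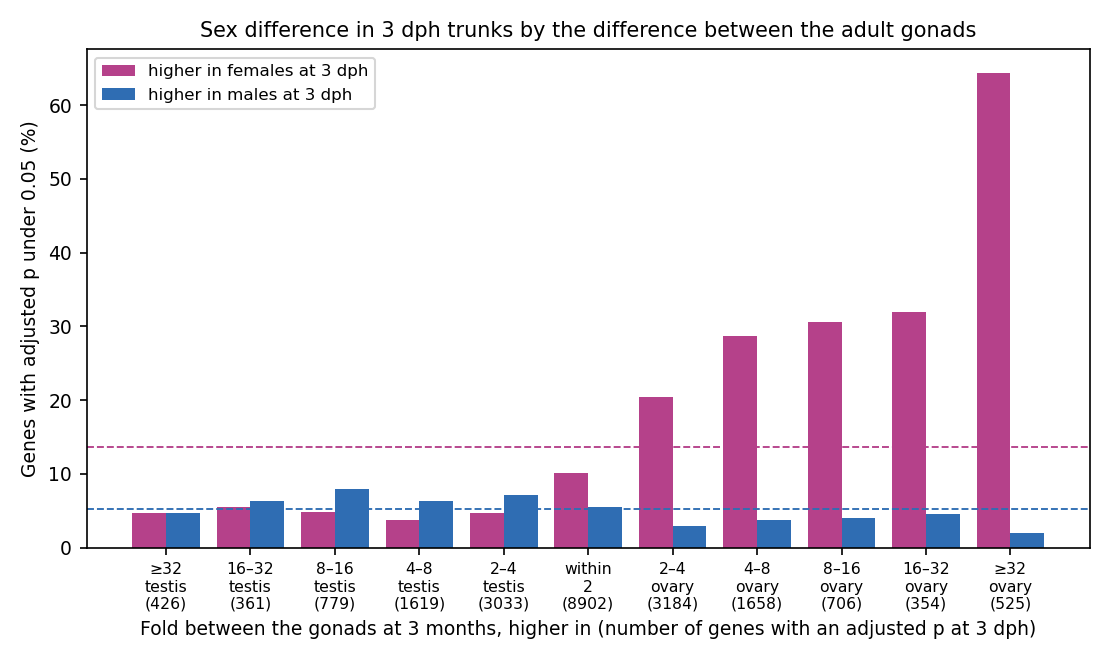
Share of genes (y axis, %) with an adjusted p-value under 0.05 between female and male trunks at 3 dph (3 libraries each, DESeq2), by the fold between the adult gonads (x axis, with the number of tested genes). Dashed lines give the shares over all genes, 13.7% higher in females and 5.19% higher in males, and the female share reaches 64.4% among genes at least 32-fold higher in the ovary. The 32-fold classes were chosen after the data were seen.

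The named genes with the largest ratios are part of the 32-fold classes. Of the 10 genes with the largest ovary ratios, 7 were higher in females at 3 dph and 0 in males. The shares were 64.4% and 1.90% in the 32-fold ovary class. Over all 242 named genes with an adjusted p-value, 46 (19.0%) were higher in females and 12 (4.96%) in males. The *krt5* model with the large ovary ratio had 26890, 34099 and 42206 normalised counts in the females and 51.2, 44.3 and 43.2 in the males. Its log2 fold change was 9.54 ± 0.22 (SE) in DESeq2. In edgeR it was 9.57 with an adjusted p-value of 1.3e-07. *ace* had 8044, 9898.5 and 12228 counts in the females and 41.4, 46.9 and 42.1 in the males, and *lsm14b* 635.7, 544.6 and 618.8 against 4.355, 3.54 and 3.32. For *sybu* the values were 1585, 1527 and 1786 in females and 95.8, 177.9 and 155.2 in males (log2 fold change 3.51 ± 0.21, adjusted p-value 6.3e-58, DESeq2). Females and males did not overlap in any of these genes, as in 2969 of the 2978 genes higher in females over the whole table. *slc24a4b*, *mctp2a* and *MMEL1* also passed, with log2 fold changes of 3.51, 1.78 and 1.16. *stm* did not, with 1322, 1153 and 1681 counts in females and 1682, 981 and 1481 in males.

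Of the 10 genes with the largest testis ratios, 7 had an adjusted p-value at 3 dph and 0 passed in either direction in DESeq2. In the whole 32-fold testis class 4.69% passed in each direction. Of the 7 genes, 1 (*KLHL10*, 2 of 2) had an unadjusted p under 0.05 and passed the threshold in edgeR. *zbbx* had 33.0, 25.7 and 28.1 normalised counts in the females and 30.5, 26.6 and 32.1 in the males, and *dnah12* 8.996, 10.6 and 9.36 against 8.71, 8.85 and 12.2. In CPM, *zbbx* stood at 0.905 to 1.149 in 3 dph females and 6.52 to 17.7 in 10 dpf males, far under its 163 in the testis. These early groups differ in stage as well as sex, and at 3 dph the sexes overlapped in *zbbx*. *KLHL10* (2 of 2) had 18.0, 19.5 and 18.7 counts in females and 6.53, 7.97 and 5.54 in males (adjusted p-value 0.055 in DESeq2 and 0.013 in edgeR). Of the 11 axoneme genes with an adjusted p-value, 0 passed at 3 dph in DESeq2 and 0 in edgeR, and 1, *pih1d2*, had an unadjusted p under 0.05 in DESeq2 (0.020). Against the shares of 13.7% and 5.19% over all genes, the genes higher in females were 6 of 11 in the DNA replication list, 5 of 12 in RNA storage, 3 of 4 in meiosis, 3 of 6 in oocyte and egg, 3 of 8 each in male germ cell, recombination repair and mitochondrial ribosome, 3 of 16 in chromosome segregation, 2 of 4 in proteasome and 2 of 16 in chromatin. Single genes were higher in females in the cilium, TGF-beta and extracellular matrix lists. The genes higher in males were 3 of 12 in the somatic list, 2 of 5 in smooth muscle, 2 of 16 in chromatin and 1 each in the oocyte and egg, DNA replication, TGF-beta, liver and striated muscle lists. Several of these lists rest on fewer than 10 genes.

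Germ cell genes with small or moderate differences between the adult gonads were among those higher in females at 3 dph. *pabpc1l*, within 2-fold in the adults, had 2947, 3262 and 4022 normalised counts in the females and 83.8, 63.7 and 117.5 in the males (log2 fold change 5.28 ± 0.22, adjusted p-value 3.0e-120, DESeq2). *taf4b* had 303.9, 297.5 and 370.3 against 11.98, 15.9 and 25.5. *rec8* had 246.9, 208.1 and 110.2 against 21.8, 15.0 and 13.3, a log2 fold change of 3.50 ± 0.39. In each of them every female library lay above every male library, which held for 2969 of the 2978 genes higher in females over the whole table.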

How the data were processed

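RNA-seq was measured in 19 libraries of *N. furzeri*, of which 1 ovary and 1 testis library are compared here. The authors filtered the reads with sga, aligned them to the killifish genome using STAR and counted reads per gene with summarizeOverlaps. The submitters' processing notes also name bcl2fastq 1.8.4. The deposited values are raw counts per gene without normalisation. The counting mode and the use of strand are not given in the sources used here, so counts of overlapping or near-identical genes are uncertain. All columns were matched to a sample by label. 0 gene identifiers were found in a RefSeq table of the assembly NfurGRZ-RIMD1, so positions and sequences were not used here.

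Gonads were scaled by median of ratios over genes counted in both. A gene was on at 1 CPM or more and off at 3 counts or fewer. The deeper ovary was thinned to the testis total 20 times. Sexes at 3 dph were compared with DESeq2 1.42.0 in R 4.3.3 (sex as the only term, Benjamini-Hochberg adjusted p-value under 0.05) and with edgeR 4.0.16. The labels do not say that replicates came from separate animals, so p-values may measure technical spread. Scripts were tested on simulated data.

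Named genes were the members of 23 lists, the 10 highest and 10 lowest ratios among symbols with at least 100 counts, symbols among the 100 most-counted genes of each gonad and the 2 most-counted on/off genes of each gonad. The gene with the most testis counts, Nfu_g_1_012476, was counted among the named genes although it has no symbol. Members, lists and rules were chosen with earlier results of these data known. Alternatives were library totals, TMM factors, pseudocounts, count filters, thinning, other thresholds, edgeR, a replicate block and leaving out each library. Some genes that this rule selects are not reported here by name.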

Additional observations from a re-analysis of the deposited data

Results flagged for a closer look

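For 6 of the 67 named genes that were at least 4-fold higher in the testis and had an adjusted p-value at 3 dph, the sexes differed in opposite directions at the compared ages, with a higher level in females at 3 dph and every female library above every male library. Of all 242 named genes with an adjusted p-value, 46 (19.0%) were higher in females, a larger share than the 8.96% of these 67. Over all genes at least 4-fold higher in the testis, 138 of 3185 (4.33%) were higher in females at 3 dph, a smaller share than the 13.7% of all genes. Of these 138 genes, 136 were without overlap between the sexes. The log2 fold changes of females over males at 3 dph were 3.27 for *brdt*, 2.18 for *rad21l1*, 0.75 for *flr*, 0.66 for *hspa8l* and 0.60 for the *CENPE* model with the most counts. It was 1.69 for Nfu_g_1_012476, the gene with the most testis counts, which has no symbol here (716 counts in the ovary and 60262 in the testis). *brdt* had 607.8, 631.3 and 731.2 normalised counts in the 3 dph females and 61.0, 68.2 and 75.4 in the males, and *rad21l1* 164.9, 138.1 and 127.9 against 30.5, 22.1 and 43.2. The difference between the ages was not tested, because each adult gonad had 1 library, and a whole trunk is set beside a gonad. Of the 458 testis-only genes 6 (1.31%) were higher in females at 3 dph, all without overlap between the sexes, and of the 338 ovary-only genes 12 (3.55%) were higher in males, 7 of them without overlap, both under the shares of 13.7% and 5.19% over all genes.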

How the results depend on the processing

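The 1-library comparison limits every gonad value to counting error. The classes of on/off genes moved most with their definition. With at least 5 CPM there were 149 ovary-only and 182 testis-only genes, with 0 counts as off 105 and 187, and with at most 10 counts as off 941 and 1609. Thinning gave 1344 testis-only genes, since 3 counts of a thinner library stand for a higher level. With a pseudocount of 10 the 4-fold testis genes numbered 2201. The other counts of detected and 4-fold genes stayed within 1.5 times under library totals, TMM factors, count filters and thinning. Testis-only genes higher in males at 3 dph numbered 19 with edgeR and 22 with the replicate number as a block, and 15 to 35 with 1 library left out, while ovary-only genes higher in females numbered 91 to 99. With 1 library left out, the testis-only shares were 3.56% to 8.68%, against 2.18% to 6.57% over all genes. The ovary-only shares were 28.5% to 32.5%, against 10.1% to 13.2%. The 32-fold classes of both gonads were chosen after seeing the data. Of the genes at least 32-fold higher in the testis, 13 were higher in males with edgeR, 12 with TMM factors, 8 with the replicate block and 9 to 29 with 1 library left out. Over the whole table the block called 2051 genes higher in females and 542 in males, against 2978 and 1131 without it. The correlations of same-numbered libraries were -0.194, 0.186 and 0.000728, and those of differently numbered ones ran from -0.348 to 0.331. With 3 libraries per sex, these values cannot decide whether equal numbers mark pairs. Scaling by library totals reversed the medians of 5 lists, meiosis (-0.22), DNA replication (-0.22), ribosomal proteins (-0.20), smooth muscle (-0.07) and liver (-0.11), and no list median reversed with a pseudocount of 10, thinning or counts under 3 set to 3. The causes of these changes were otherwise not tested.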
